A study of Mus musculus with 12 samples.

Results

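Basophils and mast cells are granule-bearing cells of allergic and anti-parasite immunity, and 8 of their transcripts were followed here through sorted CD4 T cell samples: Prss34, Mcpt8, Cpa3, Hdc, Fcer1a, Ms4a2, Gata2 and Cyp11a1. They were chosen by their measured intensities, since most stood out on some of the 12 arrays when all had been seen, so their levels and their covariation are given as a description with no test. All 8 of these genes have a probe, 8 of the 17759 genes that a probe with a single symbol names. The main probe of a gene is the one with the highest mean over the arrays.

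The 12 Illumina mouse arrays hold 4 groups of 3, all from C57BL/6 mice aged 8 to 12 weeks. They are CKO pTreg (labelled Blimp1_CKO_pTreg), Ctrl pTreg (Ctrl_pTreg), CKO Teff (Blimp1_CKO_Teff) and Ctrl Teff (Ctrl_Teff), where pTreg are Foxp3+ regulatory and Teff Foxp3- effector CD4+ T cells, CKO cells lack Blimp1 (encoded by Prdm1, a transcriptional regulator of effector lymphocytes) and Ctrl cells have it. Naive T cells of both genotypes, all with a Foxp3 GFP reporter and an allotype mark, were put in equal parts into RAG1-/- hosts, and their progeny were sorted 6 to 8 weeks later on CD4, the reporter and the mark. RNA came from pooled spleen, mesenteric lymph nodes and large intestine lamina propria, after 4 h with PMA and ionomycin. RAG1-/- mice make neither T nor B cells but keep basophils, mast cells and other myeloid cells. The sources used here do not give the driver of the Blimp1 deletion or the number of hosts behind an array.

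As background, basophils and mast cells bind IgE through a high-affinity receptor and, once triggered, release histamine, proteases and lipid mediators and make interleukin 4 and other type 2 cytokines. Basophils circulate and enter inflamed or infected tissue, while mast cells mature in tissue and depend on the receptor Kit. In the mouse, Mcpt8 marks basophils, whereas chymases such as Cma1 and Mcpt4 and tryptases such as Tpsb2 mark mast cells of connective tissue.

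The RefSeq start regions of 3 members whose signal moved together are printed here for orientation, since they belong to both role groups described below, the granule proteases Prss34 and Cpa3 and the IgE receptor chain Fcer1a. Each is the part of the 250 bases before the annotated start site that lies outside the annotated gene, in assembly GRCm38.p6. It lies at chr17:25298144-25298393 on the plus strand for Prss34 (250 bases), at chr3:20242210-20242431 on the minus strand for Cpa3 (222 bases) and at chr1:173227233-173227479 on the minus strand for Fcer1a (247 bases). Capitals mark the GATA words searched on both strands, namely AGATAA with its variant ending in G (AGATAG), and TGATAA with its variant ending in G (TGATAG), which resemble sites bound by GATA factors such as the member Gata2.
Prss34: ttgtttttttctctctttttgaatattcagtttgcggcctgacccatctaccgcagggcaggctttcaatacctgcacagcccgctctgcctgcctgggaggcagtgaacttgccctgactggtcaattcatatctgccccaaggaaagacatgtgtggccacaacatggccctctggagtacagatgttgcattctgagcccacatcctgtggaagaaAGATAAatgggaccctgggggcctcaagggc
Cpa3: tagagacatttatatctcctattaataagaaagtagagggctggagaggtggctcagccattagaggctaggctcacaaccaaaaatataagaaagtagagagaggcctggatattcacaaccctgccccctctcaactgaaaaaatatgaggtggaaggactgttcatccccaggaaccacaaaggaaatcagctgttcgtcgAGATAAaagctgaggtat
Fcer1a: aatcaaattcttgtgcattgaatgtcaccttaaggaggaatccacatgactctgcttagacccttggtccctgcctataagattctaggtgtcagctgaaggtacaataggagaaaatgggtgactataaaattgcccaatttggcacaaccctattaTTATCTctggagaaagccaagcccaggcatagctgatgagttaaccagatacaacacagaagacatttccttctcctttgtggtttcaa

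The Prss34 word lies 31 to 26 bases before its start site and the Cpa3 word 46 to 41 bases before its own, both as AGATAA. The Fcer1a word lies 92 to 87 bases before its start site and reads as TTATCT on the gene's strand. All 8 members matched the RefSeq table, and 6 of them had such a word, in 6 of their 10 windows of 250 bases, as did 26.5% of all 32851 windows. Hdc, Ms4a2 and Cyp11a1 were the others with a word, and Mcpt8 and Gata2 had none. The Hdc and Cyp11a1 words lay in windows wholly inside the annotated gene, and the Cyp11a1 window before the gene had none. Of the 3 Ms4a2 words, those that begin 37 and 11 bases before the start site also lay inside the annotated gene. A match is a description of these letters and not of binding.

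Checks of the samples bear on what follows. The array medians lay between 4.66 and 4.68 on the deposited log2 scale, array correlations between 0.943 and 0.988, and no 2 arrays were identical. Foxp3 on its brightest probe was between 7.29 and 8.94 on the pTreg arrays and between 4.42 and 4.85 on the Teff arrays, and the T cell genes Cd3d and Cd3e were at 10.76 or above on every array. Cd4 was much dimmer, from 4.95 on CKO Teff 2 to 6.40 on Ctrl Teff 3, though above the median on all 12 arrays. Prdm1 on its brighter probe was higher on the arrays labelled CKO (7.83 to 9.48) than on those labelled Ctrl (4.64 to 6.07). Its other probe stayed between 4.27 and 4.56 on every array, below the array medians, and showed no difference of this size. The place of either probe relative to the deletion is unknown here, so genotype directions are those of the labels. CKO Teff 1 and CKO Teff 2 stand apart from the other 10 arrays in the members, and the main results that rest on them are also given without them. Nothing in the labels says that replicates of a group came from separate animals, so p-values measure only the spread between these samples, which may be technical. In bulk RNA, more cells of a type and more RNA per cell cannot be told apart.

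The CKO Teff arrays numbered 1 and 2 carried the strongest basophil and mast cell signals, and CKO Teff 3 lay at or below the highest Ctrl Teff array for 7 of the 8 members, all except Cyp11a1. For 7 of the 8 members, all except Ms4a2, these arrays were the 2 highest of the 12, with a distance between 1.39 (Gata2) and 4.50 (Mcpt8) on the log2 scale from the lower of them to the third highest array, that is 2.63-fold to 22.7-fold. CKO Teff 1 was above CKO Teff 2 for 7 of the 8, and Fcer1a was the exception. Of the other 10 arrays, Ctrl Teff 2 was the highest for 5 members.

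**Figure D1:**
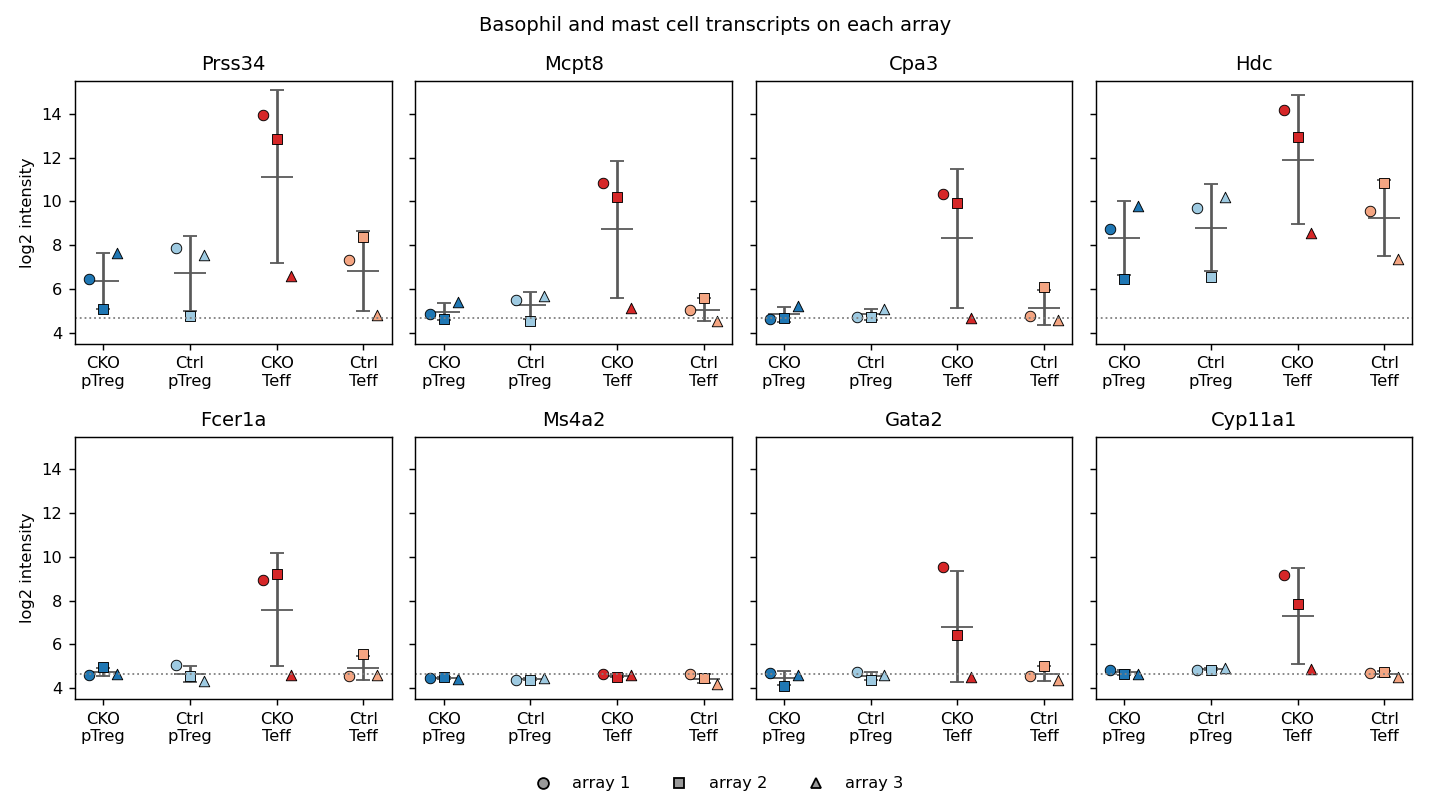
Log2 intensity (y axis) of the main probe of each of the 8 genes on the 12 arrays in 4 groups (x axis); symbols are arrays, bars are group means with SD (n = 3), and the dotted line is the mean of the array medians. CKO Teff 1 and 2 lie above every other array in 7 of the 8 panels, and Ms4a2 stays at the dotted line throughout.

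The granule proteases gave the widest separation. Prss34, a serine protease of mouse basophils, had log2 intensities of 13.96, 12.85 and 6.60 on the CKO Teff arrays, in the order of their numbers here and below. On the Ctrl Teff arrays it had 7.34, 8.35 and 4.79. On the pTreg arrays it was 6.43, 5.06 and 7.63 in CKO and 7.86, 4.74 and 7.54 in Ctrl. It was thus well above the array medians on most arrays, with its lowest values on both pTreg arrays numbered 2 and on Ctrl Teff 3, and the third CKO Teff array lay inside the Ctrl Teff range. Mcpt8, the protease that marks mouse basophils, had 10.85, 10.18 and 5.12 on the CKO Teff arrays, against 5.02, 5.59 and 4.54 on the Ctrl Teff arrays. Its pTreg values were 4.87, 4.62 and 5.38 in CKO and 5.50, 4.55 and 5.68 in Ctrl, so that 10 arrays lay within 1.13 of each other. Cpa3, a carboxypeptidase stored in the granules of both cell types, had 10.34, 9.94 and 4.65 in CKO Teff, against 4.77, 6.06 and 4.59 in Ctrl Teff. In pTreg it was 4.60, 4.66 and 5.24 in CKO and 4.69, 4.70 and 5.10 in Ctrl, near the array medians.

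Hdc, the enzyme that makes histamine, was the brightest member and the one with the widest range outside CKO Teff 1 and 2. In the mouse it is also expressed by neutrophils and other myeloid cells. Hdc had 14.19, 12.94 and 8.57 on the CKO Teff arrays, against 9.55, 10.82 and 7.37 on the Ctrl Teff arrays. The pTreg arrays had 8.72, 6.45 and 9.77 in CKO and 9.67, 6.52 and 10.20 in Ctrl. The other 10 arrays spanned 4.38 for Hdc and 3.61 for Prss34, against at most 1.47 for each of the remaining members.

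Of the IgE receptor chains, Fcer1a followed the proteases and Ms4a2 gave no signal. Fcer1a encodes the IgE-binding alpha chain, and had 8.93, 9.22 and 4.61 on the CKO Teff arrays, against 4.57, 5.55 and 4.62 on the Ctrl Teff arrays. On the pTreg arrays it was 4.60, 4.95 and 4.66 in CKO and 5.07, 4.56 and 4.35 in Ctrl. Ms4a2 encodes the beta chain, and its only probe lay between 4.21 and 4.64, above the median on 0 of 12 arrays. This probe thus did not follow the alpha chain, and an absent transcript cannot be told here from a probe that does not respond. Ms4a2 was left out of every mean below. Fcer1g, the gamma chain that many myeloid Fc receptors share, is described with the genes outside the 8.

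Gata2 and Cyp11a1 were near the array medians except on the same 2 arrays. Gata2, a transcription factor that basophils and mast cells need, had 9.52, 6.43 and 4.49 on the CKO Teff arrays, against 4.58, 5.04 and 4.39 on the Ctrl Teff arrays. Its pTreg values were 4.70, 4.11 and 4.62 in CKO and 4.73, 4.37 and 4.60 in Ctrl. CKO Teff 1 and CKO Teff 2 differed more for Gata2 than for any other member. Cyp11a1, which converts cholesterol to the steroid precursor pregnenolone, had 9.17, 7.87 and 4.88 on the CKO Teff arrays, against 4.71, 4.74 and 4.50 on the Ctrl Teff arrays. In pTreg it was 4.84, 4.66 and 4.65 in CKO and 4.82, 4.84 and 4.91 in Ctrl.

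By the RefSeq annotation of GRCm38.p6, Prss34 spans 25298394 to 25300168 on chromosome 17, Mcpt8 56082163 to 56085499 on chromosome 14, Cpa3 20215616 to 20242209 on chromosome 3 and Hdc 126593659 to 126624025 on chromosome 2. Fcer1a spans 173221269 to 173227232 on chromosome 1, Ms4a2 11615517 to 11623790 on chromosome 19, Gata2 88193891 to 88207032 on chromosome 6 and Cyp11a1 57998024 to 58027031 on chromosome 9. The 8 genes therefore lie on 8 chromosomes. The place of a probe within its transcript was not analysed here.

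Second probes gave the same picture for the 3 genes that have them. All 4 further probes, 2 of Cpa3 and 1 each of Hdc and Fcer1a, were higher on CKO Teff 1 and 2 than on every other array. The dimmest of them, ILMN_1246690 of Cpa3, had 6.51, 6.17 and 4.74 in CKO Teff, against 4.89, 4.62 and 4.46 in Ctrl Teff. The second Hdc probe, ILMN_1256122, had 12.78, 11.26 and 5.93 in CKO Teff, against 7.20, 8.77 and 5.29 in Ctrl Teff. Both Hdc probes thus had their lowest values on the same low arrays, the pTreg arrays numbered 2 and Ctrl Teff 3, and for Hdc the second probe on CKO pTreg 2 was 4.81, close to the array median.

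The genotype comparison in Teff gave large mean differences that rested on 2 of the 3 CKO arrays. For Mcpt8 the mean was 8.72 ± 3.13 (SD, n = 3) in CKO Teff and 5.05 ± 0.53 in Ctrl Teff, a difference of 3.66. For Prss34 it was 11.14 ± 3.97 in CKO Teff and 6.83 ± 1.83 in Ctrl Teff, a difference of 4.31, and for Hdc 11.90 ± 2.95 in CKO Teff and 9.25 ± 1.75 in Ctrl Teff. With CKO Teff 3 alone, the difference from the Ctrl Teff mean was 0.067 for Mcpt8, −0.23 for Prss34 and −0.68 for Hdc. The SDs within CKO Teff are as large as the differences over all 3 arrays or close to them. Cyp11a1 alone of the 8 did not overlap between the groups (lowest CKO Teff value 4.88, highest Ctrl Teff value 4.74), and 6.77% of all 12119 genes tested did not overlap either. The mean of the 7 members other than Ms4a2 was 10.99, 9.92 and 5.56 on the CKO Teff arrays, against 5.79, 6.59 and 4.97 on the Ctrl Teff arrays, a group difference of 3.04. Without CKO Teff 1 and 2 that difference was −0.22, from 1 CKO Teff array.

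Same-numbered arrays of the 2 genotypes correlated in their deviations, so the differences within each number are given too. In the first Teff pair 7 of the 8 members were at least 2-fold higher in CKO, where 2.76% of all genes were, and in the second pair 7 were, against 1.55% of all genes. In the third pair 2 were, against 0.941%. These were Prss34 and Hdc, at 1.80 and 1.20 on the log2 scale. The first pair had its largest difference in Prss34 (6.62) and the second in Mcpt8 (4.58), and the 7 members other than Ms4a2 differed by at least 4.36 in the first pair and at least 1.39 in the second.

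**Figure D2:**
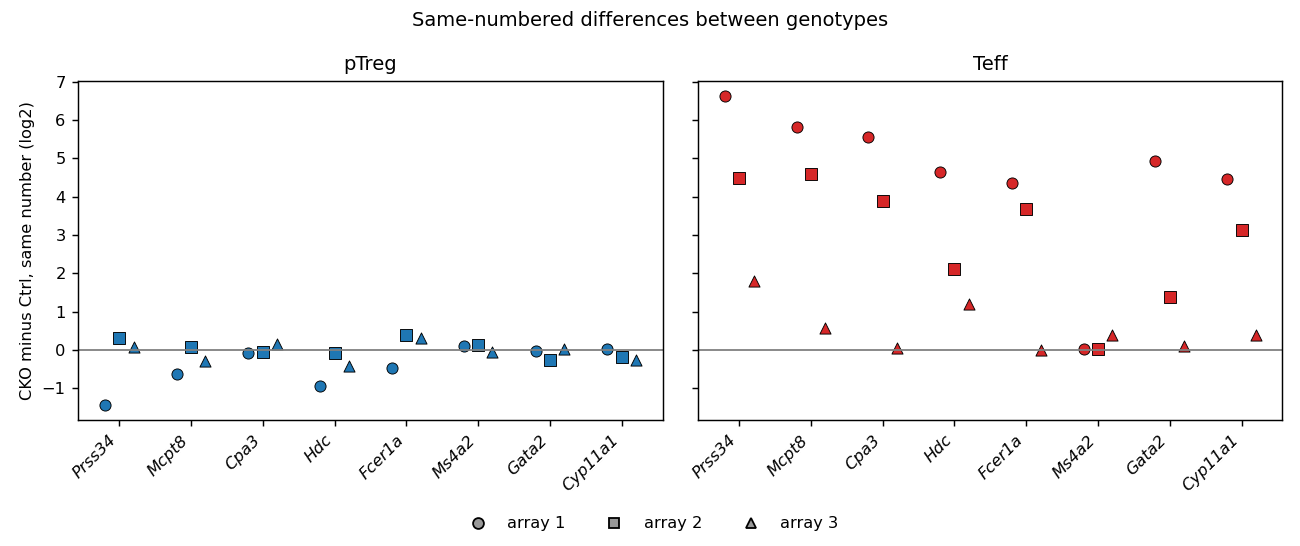
CKO minus Ctrl log2 intensity (y axis) of the same-numbered arrays for each of the 8 genes (x axis), in pTreg (left) and Teff (right); symbols are array numbers. In Teff the first and second numbers lie between 1.39 and 6.62 for the 7 genes other than Ms4a2, while the third lies at or below 1.80, and in pTreg all lie between −1.43 and 0.39.

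The genotypes of pTreg showed no such pattern. The mean of the 7 members was 5.54, 4.93 and 5.99 on the CKO pTreg arrays, against 6.05, 4.90 and 6.05 on the Ctrl pTreg arrays, a group difference of −0.18. At least 2-fold higher in CKO were 0 of the 8 members in each of the 3 pairs, where 0.858%, 0.965% and 0.776% of all genes were. The largest difference in a pair was that of Prss34 in the first, at −1.43. None of the 8 members separated the groups without overlap, while 12.3% of all genes did. The Hdc difference, CKO minus Ctrl, was −0.95, −0.076 and −0.43 in the 3 pairs.

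Between the cell types, the CKO arrays differed through the same 2 Teff arrays. The difference of the 7-member mean, CKO pTreg minus CKO Teff, was −3.34, and −0.074 without CKO Teff 1 and 2. Ctrl pTreg minus Ctrl Teff gave −0.12. Cyp11a1 did not overlap in either comparison, lower in CKO pTreg than in CKO Teff (highest CKO pTreg value 4.84) and higher in Ctrl pTreg than in Ctrl Teff (lowest Ctrl pTreg value 4.82). The background of genes without overlap was 13.7% in CKO and 14.3% in Ctrl, and these Cyp11a1 values other than on CKO Teff 1 and 2 lie within 0.41 of each other near the array medians.

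The members varied together, but much of that covariation came from CKO Teff 1 and 2. Over the 12 arrays the 21 pairs among the 7 members had a median Pearson r of 0.92 (0.81 to 0.99) and a median Spearman rho of 0.67. The arrays form 2 clusters, so these values mainly restate the distance between them. Without CKO Teff 1 and 2, the arrays farthest from the median of the members' mean, the median r over 10 arrays was 0.62 (−0.16 to 0.97) and the median rho 0.43. The highest were those among Prss34, Hdc and Mcpt8, with r of 0.97 for Prss34 and Hdc, 0.94 for Prss34 and Mcpt8 and 0.92 for Hdc and Mcpt8. Gata2 followed Hdc (0.87) and Prss34 (0.83) over a span of only 0.92 near the array medians. Cpa3 had r between 0.62 and 0.70 with Prss34, Mcpt8, Hdc, Fcer1a and Gata2. Its rho was between 0.67 and 0.72 with Prss34, Mcpt8 and Hdc, but 0.43 with Gata2 and 0.09 with Fcer1a. Cpa3 and Fcer1a were both highest of the 10 arrays on Ctrl Teff 2 (6.06 and 5.55), and r leans on that array. Fcer1a had r of 0.48 with Gata2, 0.36 with Prss34, 0.29 with Mcpt8 and 0.28 with Hdc. Cyp11a1 had its highest r with Mcpt8 (0.41) and its lowest with Fcer1a (−0.16). No p is given, since the members were picked for this pattern and same-numbered arrays are not independent.

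The mean of the neutrophil markers moved with the members on the other 10 arrays and was not highest on CKO Teff 1 and 2, although 1 marker, Il1b, was. The mean of 17 neutrophil markers, among them S100a8, S100a9, Lcn2 and Il1b, was 8.87, 9.26 and 6.82 on the CKO Teff arrays, against 7.70, 9.78 and 6.05 on the Ctrl Teff arrays. In pTreg it was 7.76, 5.82 and 7.88 in CKO and 8.77, 6.00 and 8.44 in Ctrl. Ctrl Teff 2 thus had the highest neutrophil mean of all, yet a members' mean of 6.59, against 10.99 on CKO Teff 1, whose neutrophil mean was lower. Il1b, which encodes a cytokine that monocytes and other cells make too, had 13.04, 12.74 and 9.82 in CKO Teff, against 9.61, 11.24 and 7.19 in Ctrl Teff. Over the 10 arrays other than CKO Teff 1 and 2 the members' mean and the neutrophil mean had r = 0.97 and rho = 0.94, and over all 12 r was 0.65. That was not particular to neutrophil markers. Over the 10 arrays r was 0.94 for the monocyte and macrophage mean and 0.87 for the erythroid and platelet mean. For other basophil and mast cell genes it was 0.95 (lipid mediators) and 0.93 (surface receptors). It was lower for NK and CD8 genes (0.40), T cell genes (0.38) and MHC class II and dendritic cell genes (−0.16). Hdc and Prss34 each had r = 0.94 with the neutrophil mean over the 10 arrays, Gata2 0.93, Mcpt8 0.90, Cpa3 0.72, Fcer1a 0.48 and Cyp11a1 0.32. The part of neutrophil RNA in the members' levels was not tested.

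**Figure D3:**
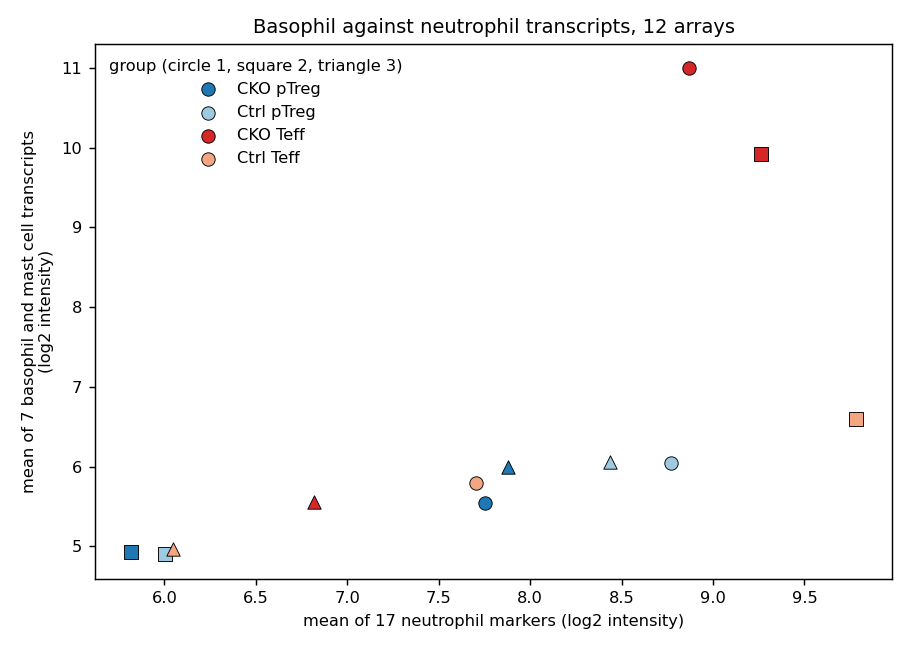
Mean log2 intensity of the 7 members (y axis) against that of 17 neutrophil markers (x axis) on the 12 arrays, coloured by group with a symbol for each array number. The other 10 arrays lie along a shallow band from 4.90 to 6.59, and CKO Teff 1 and 2, at 10.99 and 9.92, lie far above it at neutrophil means that Ctrl Teff 2 exceeds.

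Genes of basophils and mast cells outside the 8 were taken from 4 lists of 46 genes, of which 42 had a probe and 28 passed the filter, that is lay above the array median on at least 3 arrays. A gene above the median on CKO Teff 1 and 2 alone could not pass this filter. Among the genes below the filter, the transcription factor gene Tal1 reached 6.40 and was above the median on 2 arrays. In Teff, 0 of the 28 passed a Benjamini-Hochberg adjusted p of 0.05 in limma, and 0.0165% of all genes did. At an unadjusted p under 0.05 were 3, all higher in CKO, where 4.17% of all genes were. With the replicate number as a block 0 passed as well, where 0.099% of all genes did, and 9 had an unadjusted p under 0.05, where 10.4% of all genes did. The median log2 fold change of the 28 was 0.10, that of all genes −0.02, and 19 were positive. Without CKO Teff 3 the count past the threshold was 2, Cd200r3 and Csf2rb2, which are named here after their values were seen, while the count over all genes was 52 (0.429%), against 2 with all 12 arrays. Without both CKO Teff 1 and 2, 0 of the 28 passed and 0 had an unadjusted p under 0.05.

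Surface receptors held all 3 genes at an unadjusted p under 0.05. Cd63, a granule membrane protein that reaches the surface on degranulation, had 10.89, 9.997 and 6.85 in CKO Teff, against 6.03, 8.26 and 5.20 in Ctrl Teff (log2 fold change 2.75 ± 1.21 (SE), limma adjusted p = 1.00), and without CKO Teff 1 and 2 the fold change was 0.35. Cd200r3, an activating receptor of mouse basophils and mast cells, had 6.33, 5.47 and 4.69 in CKO Teff, against 4.55, 4.66 and 4.68 in Ctrl Teff. Csf2rb2, the mouse interleukin 3 receptor beta subunit, had 6.29, 6.50 and 4.87 in CKO Teff, against 4.59, 4.97 and 4.56 in Ctrl Teff. All 3 were highest on CKO Teff 1 and 2. Fcer1g, which neutrophils and other myeloid cells also express, had 11.31, 12.28 and 9.20 in CKO Teff, against 8.84, 10.91 and 6.40 in Ctrl Teff. Il3ra, the alpha chain of the same interleukin 3 receptor, had 7.50, 6.94 and 5.43 in CKO Teff, against 6.05, 5.84 and 5.35 in Ctrl Teff. Kit had 7.68, 8.75 and 7.56 in CKO Teff, against 6.67, 8.24 and 6.79 in Ctrl Teff, and was 6.17 to 7.94 on the pTreg arrays, so it did not separate CKO Teff 1 and 2 from the rest.

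Probes of most defining genes of connective tissue and mucosal mast cells were at or near background, with Cma1 on CKO Teff 2 as an exception. The chymase and tryptase probes of Mcpt1, Mcpt2, Mcpt4, Mcpt9 and Tpsb2 reached at most 4.51, 4.74, 4.63, 4.65 and 4.64 on any array. Mitf, a transcription factor of mast cells, reached 4.67, and Tpsab1 lay between 4.37 and 4.78. Cma1 was 6.35 on CKO Teff 2, 4.64 on CKO Teff 1 and at most 5.05 elsewhere. Ctsg, a protease of neutrophil and mast cell granules, had 11.01, 10.17 and 5.46 in CKO Teff, against 6.61, 9.50 and 4.77 in Ctrl Teff. The proteoglycan Srgn, which T cells express as well, was 10.92 to 12.41 on all arrays.

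Lipid mediator genes included 1 of the genes most like the members. Alox5, which starts leukotriene synthesis, had 7.26, 6.52 and 4.69 in CKO Teff, against 4.82, 5.70 and 4.64 in Ctrl Teff, and 4.51 to 5.28 in pTreg. Alox5ap, its activating protein, had 9.84, 9.60 and 6.35 in CKO Teff, against 6.67, 9.68 and 4.79 in Ctrl Teff, so that Ctrl Teff 2 was as high as CKO Teff 2. Among transcription factors, Gata1 was at most 5.12 on any array, and Lmo2 had 8.35, 6.82 and 5.47 in CKO Teff, against 5.36, 7.36 and 4.81 in Ctrl Teff. In the remaining comparisons 0 of the 28 passed in limma. Between genotypes in pTreg 0.099% of all genes passed, 0.0413% higher and 0.0578% lower in CKO, and 1 of the 28 had an unadjusted p under 0.05, where 5.33% of all genes did. Between cell types in Ctrl 1.01% of all genes passed, 0.602% higher and 0.413% lower in pTreg, and 1 of the 28 had an unadjusted p under 0.05, against 10.4% of all genes. Between cell types in CKO 0.355% passed, 0.173% higher and 0.182% lower in pTreg, and 4 of the 28 had an unadjusted p under 0.05, all lower in pTreg, against 10.8% of all genes.

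Likeness was measured as the Pearson r with the 7-member mean over the 12 arrays, among 1799 named genes with an SD of at least 0.5, and 29 of them (1.61%) had r over 0.9. As for the members, r mainly ranks genes by how far CKO Teff 1 and 2 stand out. The 10 highest were Itga2b (0.99), Il6 (0.98), Aqp9 (0.98), Tgm1 (0.97), Klf5 (0.97), Alox5 (0.97), Ccl9 (0.96), Osm (0.96), Gja1 (0.96) and Hs3st1 (0.96). Itga2b, an integrin chain of platelets and of basophil and mast cell precursors, had 7.79, 6.87 and 4.92 in CKO Teff, against 5.14, 5.14 and 4.61 in Ctrl Teff. Il6, a cytokine, had 10.21, 8.14 and 5.27 in CKO Teff, against 5.09, 5.53 and 4.52 in Ctrl Teff, and stayed at or below 5.28 in pTreg. Ccl9, a chemokine of myeloid cells, had 11.95, 11.42 and 7.49 in CKO Teff, against 6.72, 7.34 and 6.46 in Ctrl Teff. Over the 10 arrays other than CKO Teff 1 and 2, r was 0.93 for Gja1, which encodes a gap junction protein, 0.87 for Klf5, 0.85 for Il6 and 0.84 for Itga2b. It was 0.78 for Osm, 0.77 for Alox5, 0.75 for Aqp9, 0.74 for Ccl9, 0.62 for Tgm1 and 0.13 for Hs3st1, a heparan sulfate sulfotransferase. Of the 29 genes, 4 had r over 0.9 there and 8 had r under 0.5. The 3 lowest were Ltb (−0.89), which encodes lymphotoxin beta, Ttll12 (−0.87) and Sit1 (−0.87), a T cell signalling adaptor. Sit1 had 4.93, 4.91 and 6.11 in CKO Teff, against 6.39, 6.76 and 7.06 in Ctrl Teff.

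**Figure D4:**
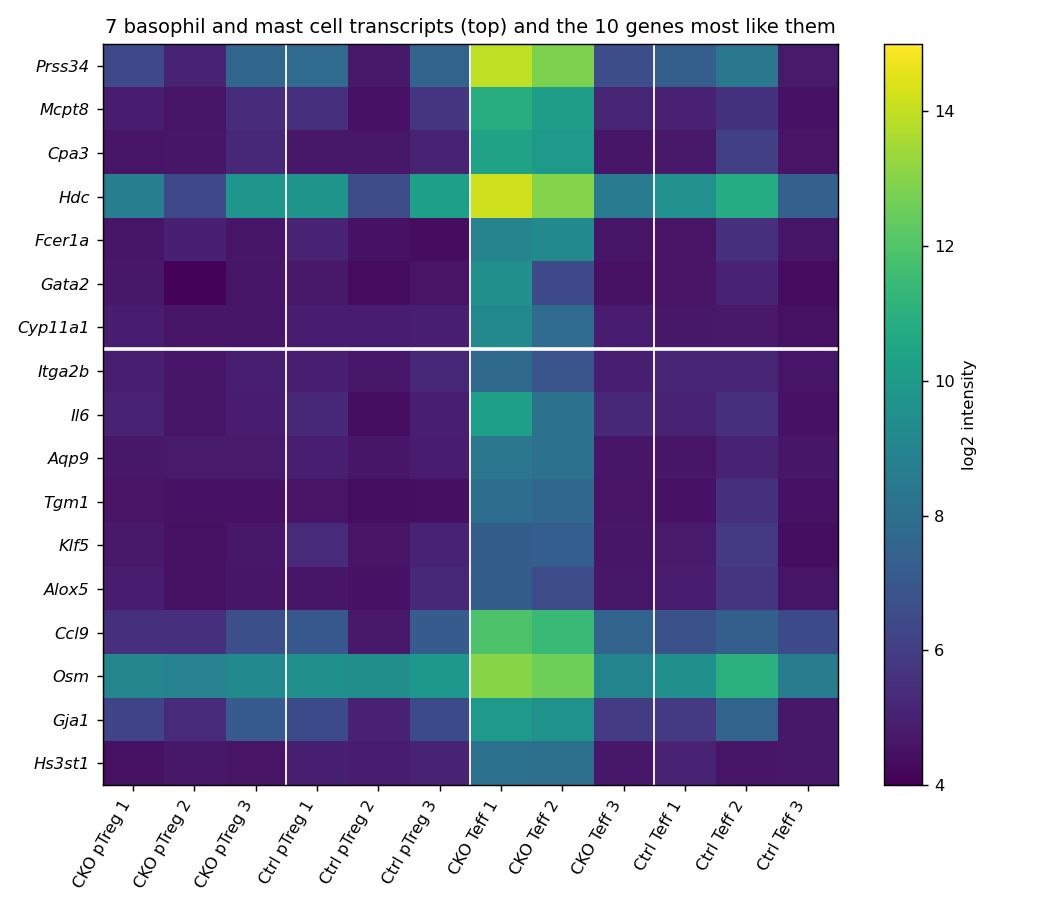
Log2 intensity (colour, 4 to 15) of the 7 members (above the white line) and the 10 genes with the highest Pearson r to their mean (below it) on the 12 arrays (x axis). The columns CKO Teff 1 and 2 are brighter than the other 10 in every row, while Hdc, Prss34, Osm and Ccl9 also carry signal elsewhere.

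Cytokine genes that both T helper cells and basophils use were high on the same arrays, though not there alone. Il4 had 14.42, 14.04 and 9.98 in CKO Teff, against 11.62, 13.17 and 10.93 in Ctrl Teff, and 8.86 to 10.99 in pTreg. Il13 had 9.68, 10.65 and 7.68 in CKO Teff, against 8.33, 11.08 and 8.20 in Ctrl Teff, with its highest value on Ctrl Teff 2. Osm, which encodes oncostatin M, had 13.04, 12.56 and 8.96 in CKO Teff, against 9.54, 11.04 and 8.63 in Ctrl Teff. Il3 was highest on CKO Teff 3 (14.18), the CKO Teff array with the lowest members' mean, and was 12.36 and 13.59 on CKO Teff 1 and 2. Of the 11 genes of this list that passed the filter, 0 passed in limma between the genotypes in Teff (0.0165% of all genes) and 3 had an unadjusted p under 0.05 (4.17% of all genes), Il6, Csf1 and Lif, named after their values were seen. Csf1 had 9.56, 8.76 and 7.03 in CKO Teff, against 6.00, 7.56 and 6.14 in Ctrl Teff, and Lif had 10.66, 11.11 and 9.28 in CKO Teff, against 7.84, 8.99 and 5.09 in Ctrl Teff. Their share in the members' pattern was not tested.

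Markers of other cells were uneven across the arrays. The 9 T cell identity genes that passed the filter had a mean of 10.03, 9.94 and 10.13 on the CKO Teff arrays, against 10.39, 10.44 and 10.47 on the Ctrl Teff arrays, so CKO Teff 1 and 2 were the 2 lowest arrays of the 12 but within 0.75 of the highest. The 6 NK and CD8 cell genes had a mean of 7.58, 8.60 and 6.47 in CKO Teff, against 6.42, 6.46 and 6.23 in Ctrl Teff. That mean was also highest on CKO Teff 1 and 2, as were 4 of the 6 genes, Klre1, Klra7, Klrd1 and Eomes. Cd8b1, the CD8 chain that passed the filter, did not follow. It had 9.31, 8.45 and 9.90 in CKO Teff, against 9.52, 8.80 and 9.87 in Ctrl Teff. Klrd1 of this list, which encodes the receptor chain CD94, was the only list gene to pass in any comparison, lower in CKO pTreg (4.92, 5.30 and 5.09) than in CKO Teff (8.80, 10.26 and 7.57), with a log2 fold change of −3.77 ± 0.55 (SE) and a limma adjusted p of 0.020. That adjusted p was 0.235 without CKO Teff 1 and 2 (fold change −2.47), 0.0749 without CKO Teff 1 alone and between 0.0734 and 0.0990 without any 1 of the CKO pTreg arrays. The 7 MHC class II and dendritic cell genes had a mean of 7.65, 8.10 and 6.91 in CKO Teff, against 5.63, 7.02 and 5.95 in Ctrl Teff. It was higher in CKO in each pair. Of the 7 genes, 0 passed in limma between the genotypes in Teff, where 0.0165% of all genes did. At an unadjusted p under 0.05 were 4, H2-Aa, H2-Ab1, H2-Eb1 and Cd74, where 4.17% of all genes were. The 9 erythroid and platelet genes had a mean of 6.07, 5.69 and 4.76 in CKO Teff, against 5.16, 5.44 and 4.63 in Ctrl Teff. That mean was highest on CKO Teff 1 and 2, but only 2 of the 9 genes were, Itga2b and Car2. Hbb-bt was highest on Ctrl Teff 2 (6.98) and Car1 on Ctrl pTreg 3 (7.38). Epithelial and stromal genes (8) had 5.23, 5.21 and 4.80 in CKO Teff, against 4.87, 4.90 and 4.77 in Ctrl Teff. Only 1 of these 8 was highest on CKO Teff 1 and 2, Pecam1 (8.41 and 8.24). B and plasma cell genes (5) stayed between 4.54 and 4.76 on all arrays. Eosinophil markers did not follow the members: Prg2 was 6.58, 6.95 and 4.80 in CKO Teff, against 4.56, 7.50 and 4.57 in Ctrl Teff, and Epx, Siglecf and Ccr3 reached at most 4.75, 4.62 and 4.79 on any array. The monocyte and macrophage mean was 6.14, 6.51 and 5.69 in CKO Teff, against 5.81, 6.85 and 5.08 in Ctrl Teff. The cells were sorted on CD4, the reporter and an allotype mark, and the neutrophil marker S100a8 still lay between 10.09 and 14.54 on the arrays. The part that RNA of host cells has in the members' levels was not tested.

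**Figure D5:**
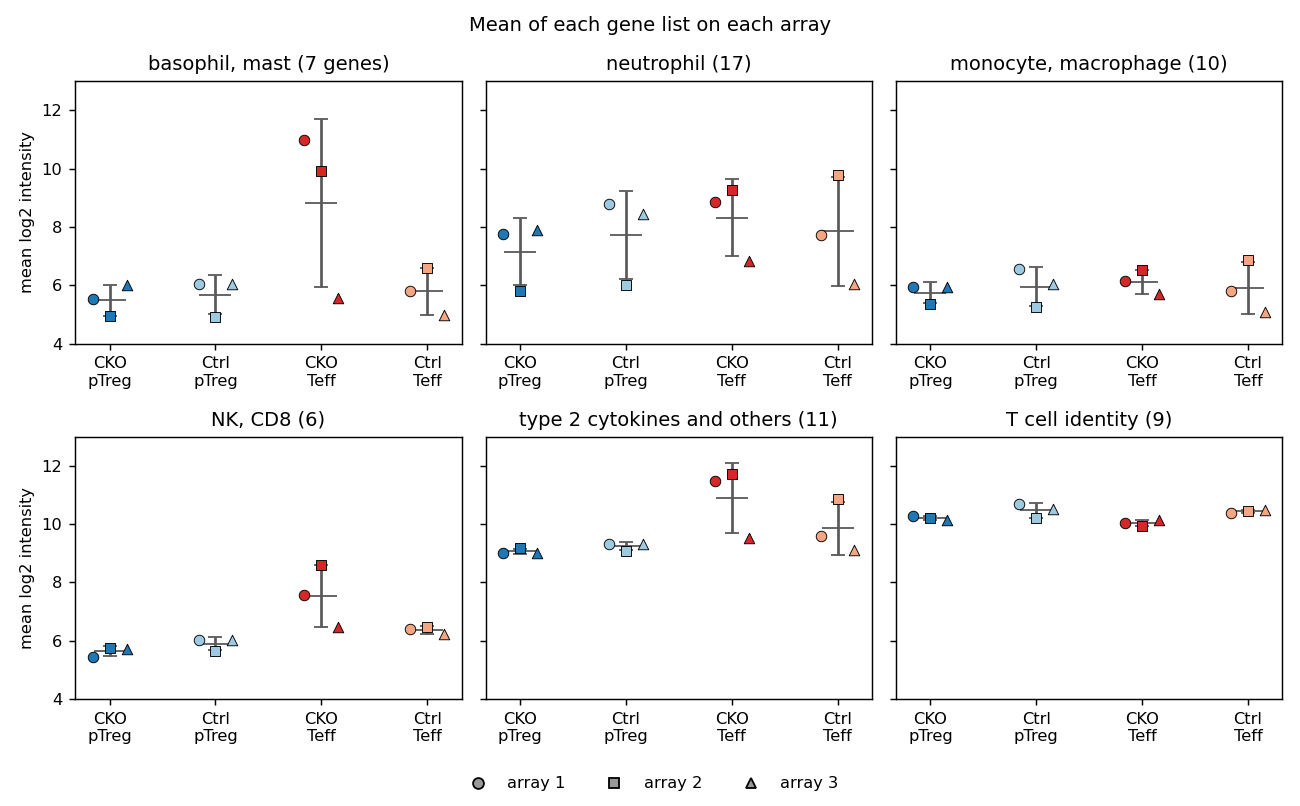
Mean log2 intensity (y axis) of 6 gene lists on each array in 4 groups (x axis); symbols are arrays and bars are group means with SD (n = 3). CKO Teff 1 and 2 stand apart in the basophil and mast cell panel (10.99 and 9.92), neutrophil means are highest on Ctrl Teff 2 (9.78), and T cell means stay between 9.94 and 10.69.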

How the data were processed

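Per the labels' protocols, RNA was purified with a Qiagen kit and biotin-labelled cRNA made with an Ambion MessageAmp kit. The authors deposited 1 log2 intensity per probe and array, for which their processing notes list the tools GenomeStudio and limma (version 3.30.11). The sources used here do not say how background was corrected, values normalized or probes filtered. That the deposited values are log2 was read from their range (4.09 to 14.98), and they were not transformed further. If background still adds to the deposited signals, log2 differences near the array median understate changes.

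Of 31641 probes, 28197 had a single gene symbol in the platform annotation, 5 had several and 3439 were not listed. Probes above the array's median on 3 or more of the 12 arrays were kept (17579 probes), and each gene took its brightest kept probe (12119 genes). Fcer1a and Gata2 were above the median on only 5 arrays, and Ms4a2 on none. Groups were compared with limma 3.58.1 in R 4.3.3 (package data.table, version 1.17.8), 1 mean per group over all 12 arrays, 2.51 prior and 10.5 total degrees of freedom, two-sided, with Benjamini-Hochberg adjustment. The pipeline was tested on simulated data. List genes were named from the up to 4 with the highest means in each list and from any called (Klrd1), and other genes were named after their values were seen, among them Cd200r3, Csf2rb2, Il13, Csf1, Lif and the mast cell genes below the filter. The members and lists were chosen with earlier results of these data known.

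Same-numbered arrays correlated in their residuals at 0.545, 0.519 and 0.589 between the genotypes in pTreg and at 0.348, 0.733 and 0.737 in Teff, so the numbers were treated as pairs there. Between cell types the correlations ran from −0.266 to 0.325. The number of arrays limits the precision. Alternatives were quantile normalization, median centring, other probe filters, the mean of probes, trend and robust settings, a replicate block, only the 6 arrays compared, and leaving out arrays.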

Additional observations from a re-analysis of the deposited data

Results flagged for a closer look

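The same-numbered differences of Hdc between the genotypes had opposite signs in the 2 cell types. CKO minus Ctrl was 4.64, 2.12 and 1.20 on the log2 scale in the Teff pairs numbered 1, 2 and 3, and −0.95, −0.076 and −0.43 in the pTreg pairs. The mean of 17 neutrophil markers differed by 1.16, −0.52 and 0.77 in the same Teff pairs and by −1.01, −0.19 and −0.56 in the same pTreg pairs, and its part in the Hdc values was not tested. The difference between the cell types was not tested. All 3 pTreg values are smaller in size than the SD of Hdc in CKO pTreg (1.70) and in Ctrl pTreg (1.99). In Teff the group difference rested on CKO Teff 1 and 2, and CKO Teff 3 minus the Ctrl Teff mean was −0.68. No group has more than 3 arrays, so single arrays far from the rest of their group were not tested for.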

How the results depend on the processing

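No count of the 28 other basophil and mast cell genes past the threshold differed from 0 under the alternatives run, except without CKO Teff 3. Leaving out each array gave 0 to 2 in CKO against Ctrl Teff and 0 to 3 in CKO pTreg against CKO Teff (Cd200r3, Csf2rb2 and, there, Alox5), and 0 throughout in both other comparisons. The replicate block changed none of these 4 counts, but the Klrd1 call between cell types in CKO was lost with it (adjusted p = 0.0505) and with only the 6 arrays compared (adjusted p = 0.136). It did move the count over all genes in pTreg (264 against 12) and in Teff (12 against 2) between the genotypes. Over all settings other than leaving out single arrays, that count ran from 11 to 264 and from 0 to 12, and between cell types from 29 to 145 in Ctrl (123 as reported) and from 0 to 86 in CKO (43 as reported). Without single arrays it ran from 5 to 17, 0 to 52, 44 to 163 and 16 to 259 in the same order.

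Without both CKO Teff 1 and CKO Teff 2, chosen after seeing the data, the difference of the 7-member mean was −0.22 against 3.04 in Teff and −0.074 against −3.34 for CKO pTreg minus CKO Teff, and the median r among members was 0.62 against 0.92. The lone CKO Teff array is then assumed to vary like the other groups. Leaving out 1 array gave 1.95 to 4.67 in Teff, −0.57 to 0.10 in pTreg, −0.53 to 0.29 for Ctrl pTreg minus Ctrl Teff, −4.97 to −2.25 for CKO pTreg minus CKO Teff, and a median r of 0.92 to 0.96. Quantile normalization, median centring and the mean of probes moved these differences and the median r by less than the spread between replicates or pairs. The low end of the scale is limited by background, where Ms4a2 and most values of Cyp11a1, Gata2 and Fcer1a lie.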
